A study of Mus musculus with 20 samples.

Results

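Interferons are cytokines that cells release on sensing viral nucleic acid. They bind receptors that act through the JAK1 and TYK2 kinases and on transcription factors that bind interferon-stimulated response elements (ISREs) in the promoters of a shared set of antiviral genes. In the brain such genes are transcribed at a low level without infection, and microglia, astrocytes, neurons and vascular cells can all raise them. The 9 interferon-stimulated genes described here were chosen by symbol from the 25239 genes of the table, and all 9 were found: Ifit1, Ifit3, Isg15, Irf7, Bst2, Oasl2, Rtp4, Usp18 and Ifi27. All 9 passed the filter on low counts in each comparison. They were read in the preoptic area (POA) of 20 male mice by bulk RNA-seq, and the question asked of them was whether their levels differed with housing or genotype, and whether they rose and fell together from mouse to mouse.

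Every mouse was weaned and paired on postnatal day (PND) 20 and its tissue was collected on PND320, after 300 days of housing. Control mice lived with a male (same sex, SS, n = 5) or with a female with which they bred and raised litters (opposite sex, OS, n = 5). dnFGFR mice were housed in the same 2 ways (n = 5 and 5). They are homozygous for a transgene that encodes a truncated FGF receptor 1 without its kinase domain, driven by a rat GnRH promoter, so its expression is aimed at GnRH neurons, which are few among the cells of the tissue sampled. Control mice of the same genetic background came from crosses between heterozygous dnFGFR siblings. Because the POA was taken whole, a lower level of a gene can mean fewer cells of a type or less RNA in each, and these cannot be told apart. Control and dnFGFR mice were sacrificed on different dates, so effects of date and of genotype cannot be told apart either.

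Counted reads ran from 32353578 to 39871353 per mouse, and levels are given as CPM, a gene's reads scaled to a fixed library total, after TMM normalization. POA markers Gnrh1, Esr1, Gal, Nkx2-1 and Hmx2 had reads in all 20 mice, and their summed level ran from 15.0 to 38.2 CPM. Fgfr1 lay between 81.6 and 102 CPM in all mice. Gnrh1 averaged 2.02 CPM ± 0.454 (SD, n = 5) in control SS mice and 1.27 ± 0.160 in dnFGFR SS mice, a difference that did not pass the adjusted threshold (log2 fold change -0.67, SE 0.202, edgeR adjusted p = 0.308). 1 mouse, dnFGFR OS replicate 5, stood apart on the first principal component of all genes (69.3, against -29.8 to 16.0 in the others). Markers of the choroid plexus, the tissue inside the ventricles that makes cerebrospinal fluid, varied more between mice than those of any other cell type. Its transthyretin transcript, Ttr, had 7 reads in 1 mouse and 67197 in another. These values recur below beside the results they move with.

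The core of an ISRE can be written GAAANNGAAA, and 4 of the 6 members with a promoter sequence at hand hold it. Promoters are from RefSeq on GRCm38.p6, the strand of the gene is read 5′ to 3′, and each window runs from 250 bases before the annotated start to 50 bases after it. The start is that of 1 transcript and can lie inside the span of the gene. Ifit1 (chr19:34640639-34640938, plus strand), Ifit3 (chr19:34583279-34583578, plus strand), Isg15 (chr4:156200769-156201068, minus strand) and Bst2 (chr8:71537423-71537722, minus strand) are shown because the shared motif can be seen in them, with each match to GAAANNGAAA on either strand in capitals (TTTCNNTTTC where it lies on the opposite strand).
Ifit1: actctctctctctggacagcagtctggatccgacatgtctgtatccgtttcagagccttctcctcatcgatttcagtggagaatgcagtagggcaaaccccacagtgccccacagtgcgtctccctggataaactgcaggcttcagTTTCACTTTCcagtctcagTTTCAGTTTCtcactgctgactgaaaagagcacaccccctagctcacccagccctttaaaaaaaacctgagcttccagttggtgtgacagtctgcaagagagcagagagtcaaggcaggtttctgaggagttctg
Ifit3: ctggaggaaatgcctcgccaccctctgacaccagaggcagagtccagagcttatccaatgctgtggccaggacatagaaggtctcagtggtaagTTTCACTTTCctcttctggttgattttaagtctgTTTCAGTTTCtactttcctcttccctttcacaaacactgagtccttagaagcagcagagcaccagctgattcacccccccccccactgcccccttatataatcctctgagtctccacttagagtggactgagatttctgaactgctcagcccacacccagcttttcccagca
Isg15: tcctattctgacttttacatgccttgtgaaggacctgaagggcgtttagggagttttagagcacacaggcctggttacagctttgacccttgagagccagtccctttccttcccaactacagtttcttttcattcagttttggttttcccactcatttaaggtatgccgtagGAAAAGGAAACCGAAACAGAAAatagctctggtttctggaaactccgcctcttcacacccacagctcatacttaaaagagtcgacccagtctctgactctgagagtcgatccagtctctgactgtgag
Bst2: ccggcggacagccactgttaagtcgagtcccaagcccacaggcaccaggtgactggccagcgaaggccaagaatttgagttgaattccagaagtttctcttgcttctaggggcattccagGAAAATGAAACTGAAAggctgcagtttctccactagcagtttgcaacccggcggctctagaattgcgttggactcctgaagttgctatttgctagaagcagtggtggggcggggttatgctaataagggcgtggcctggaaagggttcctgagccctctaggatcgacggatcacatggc

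In Ifit1 the matches begin 104 and 85 bases before the start, both on the strand opposite to the gene, and in Ifit3 they begin 156 and 122 bases before it. The 2 genes hold the same pair of 10-base words in the same order, TTTCACTTTC and then TTTCAGTTTC. In Isg15, 3 overlapping matches begin 78, 72 and 66 bases before the start and form 1 continuous run. In Bst2, 2 overlapping matches begin 130 and 124 bases before the start. The promoters of Irf7 (chr7:141266375-141266674, minus strand) and Oasl2 (chr5:114896684-114896983, plus strand) had no GAAANNGAAA in this window. Of all 32851 promoters of this length in the table, 1131 (3.44%) held GAAANNGAAA on either strand. Among 44 promoters of other antiviral effector genes, 19 (43.2%) held it, and among 11 promoters of interferon gamma-responsive genes, 9 (81.8%) did. A match is a description of the letters, and binding was not measured. Promoters of Rtp4, Usp18 and Ifi27 are not shown.

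The members differ in role. Ifit1 and Ifit3 are tetratricopeptide repeat proteins, of which IFIT1 binds viral RNA and IFIT3 partners it. They lie near each other on chromosome 19 (Ifit1 at chr19:34640889-34650009, Ifit3 at chr19:34583119-34588982, GRCm38.p6). Isg15 (chr4:156199424-156200818) encodes a ubiquitin-like modifier, and Usp18 (chr6:121245906-121270917) the protease that removes it from proteins and that also dampens signalling at the interferon receptor. Irf7 (chr7:141263183-141266499) is the transcription factor that amplifies type I interferon production. Bst2 (chr8:71534255-71537472), also called tetherin, holds budding virions at the cell surface. Oasl2 (chr5:114896926-114912245) belongs to the oligoadenylate synthetase family, Rtp4 (chr16:23520219-23614222) is a receptor transporter protein that negatively regulates interferon responses, and Ifi27 (chr12:103434189-103440245) is a small interferon-induced membrane protein. Ifit1, Isg15, Rtp4, Usp18 and Ifi27 overlap other annotated genes (Ifit1bl1, Gm46878, Masp1, Gm44148 and Ifi27l2a), and Ifit3 has a near-identical copy in Ifit3b. The counter's settings for strand and for shared reads are not given in the sources used here, so values of these 6 genes may hold reads of their neighbours or copy.

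All 9 members were detected in every mouse, at low levels. Reads per mouse ran from 21 for Usp18 to 1123 for Ifi27. On the scale of CPM per kilobase of exon (RPKM), Ifi27 was the highest (15.2 ± 2.83, SD, n = 20 mice), followed by Ifit3 (7.13 ± 1.35). These 2 did not overlap in any mouse, since the lowest Ifi27 level was 11.0 RPKM and the highest Ifit3 level 9.96 RPKM. Bst2 (2.48 ± 0.890), Isg15 (1.90 ± 0.613) and Ifit1 (1.09 ± 0.315) came next. Rtp4 (0.798 ± 0.177), Oasl2 (0.575 ± 0.115), Irf7 (0.516 ± 0.141) and Usp18 (0.380 ± 0.118) were the lowest. The lowest Ifit3 level (5.16 RPKM) also lay above the highest Bst2 level (4.23 RPKM). From Bst2 down, each gene's range over mice overlapped that of the next in order, and the means of Oasl2 and Irf7 lay within 1 SD of each other. Lengths are exon unions of GENCODE vM21, and that of Irf7 (3776 bases) exceeds its RefSeq span (3317 bases), which lowers its level on this scale.

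Variation within groups was set beside that of counting. The coefficient of variation of CPM within groups was 35.7% for Bst2, 29.6% for Usp18 and 19.2% for Ifit3, where counting reads alone would give 11.2%, 16.3% and 4.77%. Over the 9 members these values ran from 19.2% to 35.7% within groups and from 3.55% to 16.3% for counting, and the difference was not tested. Usp18 in control SS mice was at 0.962, 0.989, 1.00, 0.969 and 0.918 CPM, a coefficient of variation of 3.29%, below that of counting. In the other 3 groups its highest level was 2.20 to 2.37 times its lowest.

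**Figure D1:**
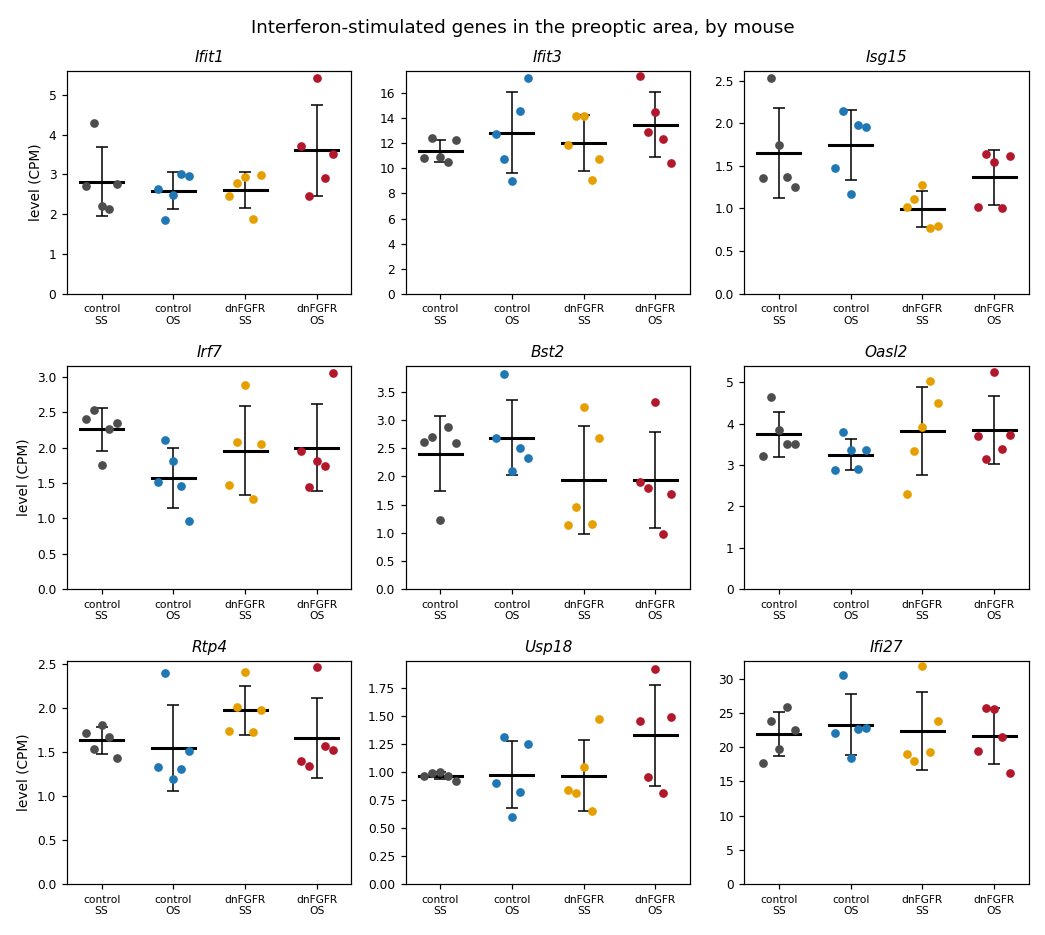
Level in CPM (vertical axis, from 0) of each of the 9 genes in each mouse, by group along the horizontal axis (control SS, control OS, dnFGFR SS, dnFGFR OS; 5 mice each). Points are mice, long bars are group means and error bars are SD. The groups overlap in every panel, with Isg15 lowest in dnFGFR SS mice and Irf7 lowest in control OS mice on average.

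Housing was compared first in control mice. None of the 9 members passed the threshold between OS- and SS-housed control mice (edgeR quasi-likelihood test, Benjamini-Hochberg adjusted p under 0.1), where 0.124% of all 17004 genes tested passed. The median log2 fold change of the members was 0.01 (0.0021 over all genes), with 5 above and 4 below 0. Irf7 had the smallest p of the 9. It measured 2.41, 2.53, 1.75, 2.26 and 2.34 CPM in the 5 control SS mice and 1.51, 2.11, 1.82, 1.46 and 0.966 CPM in the 5 control OS mice. Of the OS-housed mice, 3 lay below every SS-housed mouse and the other 2 lay between the lowest and the second lowest of them. The log2 fold change was -0.52 (SE 0.212, 95% interval -0.97 to -0.07), with an unadjusted p of 0.0269 in edgeR and an adjusted p of 0.600. An unadjusted p under 0.05 was met by 1 of the 9 members and by 7.2% of all genes. Oasl2 (-0.20, SE 0.144) and Ifit3 (0.18, SE 0.141) had the next smallest p, and in edgeR their adjusted p were 0.817 and 0.846.

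In dnFGFR mice, none of the 9 members passed between OS and SS housing, and neither did any of the 16944 genes tested (0%). At an unadjusted p under 0.05 in edgeR, none of the 9 members and 6.72% of all genes passed. Ifit1 measured 2.46, 2.79, 2.94, 1.87 and 2.98 CPM in dnFGFR SS mice and 3.71, 2.45, 5.43, 2.91 and 3.51 CPM in dnFGFR OS mice. Of the OS-housed mice, 3 lay above every SS-housed mouse, and the other 2 lay within the SS range. The log2 fold change was 0.46 (SE 0.221, 95% interval -0.01 to 0.94, edgeR adjusted p = 0.726). Without dnFGFR OS replicate 3, the mouse at 5.43 CPM, it was 0.27. Isg15 (0.46, SE 0.250) and its protease Usp18 (0.45, SE 0.303) had differences of the same size and direction (edgeR adjusted p = 0.762 and 0.797). Without the same mouse, Usp18 was at 0.28 and Isg15 at 0.41. Bst2 (-0.0024, SE 0.362), Oasl2 (0.0097, SE 0.215) and Irf7 (0.03, SE 0.265) had fitted differences near 0, with intervals that reached 0.78, 0.47 and 0.60 on the upper side. The members' median was 0.03, against 0.0037 over all genes.

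The housing difference was then compared between genotypes. No member and none of the 17445 genes tested passed the interaction test (0%), and at an unadjusted p under 0.05 in edgeR 0 of 9 members and 3.41% of all genes did. The largest fitted interactions were those of Ifit1 (0.58, SE 0.310, edgeR adjusted p = 0.963) and Irf7 (0.55, SE 0.339, same adjusted p). Of Irf7, the fitted housing difference was -0.52 in control mice and 0.03 in dnFGFR mice, and these 2 values did not differ beyond their error (unadjusted p = 0.121 in edgeR).

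Between genotypes, SS-housed mice gave no member past the threshold, against 0.2% of 16992 genes. Isg15 had the smallest p of the members. It measured 1.35, 2.53, 1.75, 1.37 and 1.25 CPM in control SS mice and 1.01, 1.11, 1.27, 0.774 and 0.791 CPM in dnFGFR SS mice. Of the dnFGFR mice, 4 lay below every control mouse, and the highest, at 1.27 CPM, just exceeded the lowest control mouse. The log2 fold change was -0.73 (SE 0.248, 95% interval -1.26 to -0.20), with an unadjusted p of 0.0105 in edgeR and an adjusted p of 0.389, the smallest adjusted p of any member in any comparison. 1 of 9 members and 8.63% of all genes had an unadjusted p under 0.05. The enzymes that attach ISG15 to proteins, Uba7, Ube2l6 and Herc6, gave no gene past the threshold in the same mice (Herc6 came closest, at 0.25 on the log2 scale, edgeR adjusted p = 0.712). Rtp4 was at 1.97 CPM ± 0.276 in dnFGFR SS mice and 1.63 ± 0.149 in control SS mice (log2 fold change 0.28, SE 0.169, edgeR adjusted p = 0.693). The median over members was 0.0033, against 0.0042 over all genes.

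In OS-housed mice, no member passed between genotypes, against 0.0531% of 16941 genes, and none of the 9 but 7.02% of all genes had an unadjusted p under 0.05 in edgeR. Ifit1 averaged 3.60 CPM ± 1.13 in dnFGFR OS mice and 2.58 ± 0.467 in control OS mice (log2 fold change 0.48, SE 0.223, edgeR adjusted p = 0.709). Without dnFGFR OS replicate 3 the value was 0.28. Isg15 averaged 1.37 CPM ± 0.322 in dnFGFR and 1.74 ± 0.408 in control mice (log2 fold change -0.35, SE 0.246, edgeR adjusted p = 0.799). Bst2 averaged 1.94 CPM ± 0.854 in dnFGFR and 2.69 ± 0.670 in control mice (-0.47, SE 0.285, edgeR adjusted p = 0.773). Without dnFGFR OS replicate 3, which had the highest Bst2 level of its group, Bst2 was at -0.76 and still did not pass. The 2 genotype comparisons share no mice with each other, but each shares mice with both housing comparisons.

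In each of the 4 comparisons between 2 groups, all 9 members overlapped between the groups, where 1.61%, 1.43%, 1.57% and 1.59% of all genes did not overlap (housing in control, housing in dnFGFR, genotype in SS, genotype in OS). The precision was enough to bound most differences. Of the 36 intervals, 32 lay within 1 log2 unit of 0 on both sides. The other 4 were those of Isg15 between genotypes in SS-housed mice, Bst2 and Usp18 between genotypes in OS-housed mice, and Usp18 between housings in dnFGFR mice. For the interaction, 4 of 9 intervals did so.

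**Figure D2:**
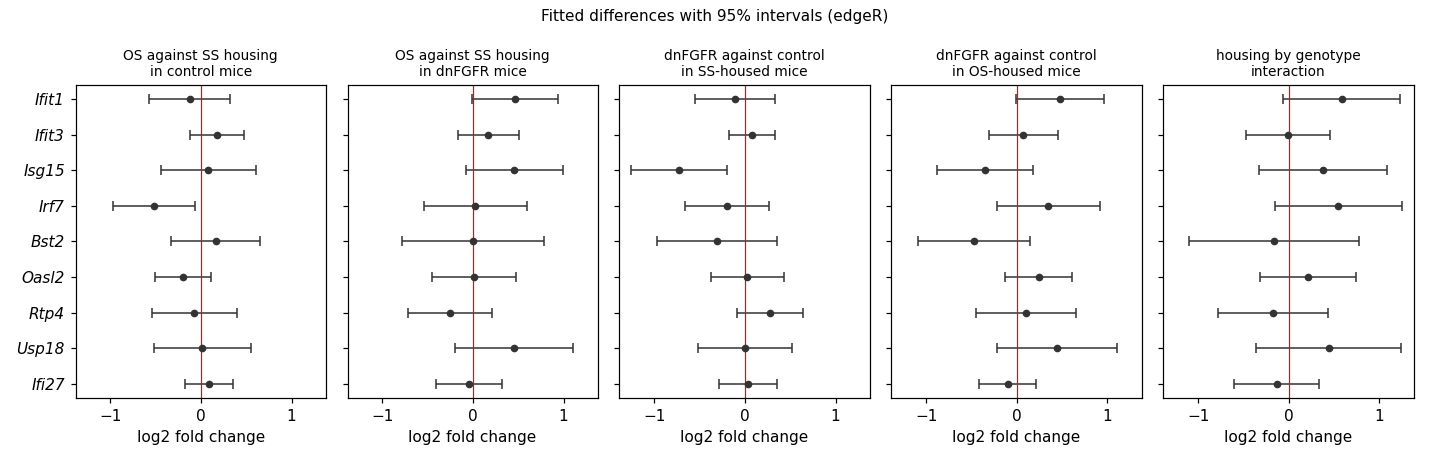
Fitted log2 fold change (horizontal axis) of each of the 9 genes (vertical axis) in the 5 comparisons, with 95% intervals from edgeR as bars and 0 as a red line. The intervals of Irf7 between housings in control mice and of Isg15 between genotypes in SS-housed mice leave out 0 before adjustment, and no gene passed after it.

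Genes around the members in the pathway were read by lists. Of 11 interferon ligands, 7 had no read in any mouse, among them Ifnb1, and the other 4 (Ifng, Ifnk, Ifnz and Ifna4) had 44 reads in all over the 20 mice, with at most 6 in 1 mouse. Of the genes that receive and pass on the signal, the receptor chain Ifnar1 averaged 58.0 CPM, the kinase Jak1 147 CPM, and the transcription factors Stat2 and Irf9 26.9 and 12.5 CPM. None of these 4 passed in any comparison.

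Of 44 other antiviral effectors, 38 or 39 were tested in each comparison, and none passed. Mx2, a dynamin-like antiviral GTPase, came closest. It averaged 0.746 CPM in dnFGFR OS mice, 1.36 in dnFGFR SS mice, 1.62 in control SS mice and 1.61 in control OS mice. Its log2 fold change between genotypes in OS-housed mice was -1.10 (SE 0.235, edgeR adjusted p = 0.238), and between housings in dnFGFR mice -0.86 (SE 0.271, edgeR adjusted p = 0.726). These 2 comparisons share the dnFGFR OS mice. Between genotypes, the median over the 39 effectors tested was 0.10 in OS-housed mice, against 0.00013 over all genes. In SS-housed mice it had the other sign, at -0.07, against 0.0042 over all genes. Ifitm1 had the smallest p between housings in control mice (-0.60, edgeR adjusted p = 0.465) and Rsad2, which encodes viperin, between genotypes in SS-housed mice (-0.68, edgeR adjusted p = 0.339).

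The genes that respond mainly to interferon gamma gave none past the threshold of 14 tested. Gbp4, a guanylate-binding protein, averaged 3.75 CPM in control SS mice and 2.51, 2.10 and 2.12 CPM in control OS, dnFGFR SS and dnFGFR OS mice. Its log2 fold changes were -0.84 between genotypes in SS-housed mice (SE 0.184, edgeR adjusted p = 0.144) and -0.58 between housings in control mice (SE 0.157, edgeR adjusted p = 0.285), and both rest on the same control SS mice. Of these 14 genes, 11 were below 0 between genotypes in SS-housed mice and 12 in OS-housed mice, with medians of -0.16 and -0.24. Over all genes tested, 8227 of 16992 and 8465 of 16941 were below 0. Markers of endothelial cells, the lining of blood vessels, had fold changes of the same sign, with 6 of 6 below 0 in each (medians -0.29 and -0.04), of which 6 in SS-housed and 1 in OS-housed mice had an unadjusted p under 0.05 in edgeR. Between housings in control mice all 6 were below 0 too (median -0.19, 3 with an unadjusted p under 0.05 in edgeR). The 14 interferon gamma-responsive genes were split there, with 7 above and 7 below 0 (median -0.01). Of 5 pericyte markers, 5 were below 0 between genotypes in SS-housed mice and 3 in OS-housed mice. Values below 0 were not particular to vascular cells. Of 5 oligodendrocyte markers, 5 were below 0 in both genotype comparisons. Of 5 choroid plexus and ependyma markers, 2 were below 0 in SS-housed mice and 5 in OS-housed mice (median -0.78). No endothelial or pericyte marker passed the threshold. Their summed levels ran from 169 to 188 CPM for endothelial cells in control SS mice, and from 149 to 169, 129 to 178 and 119 to 200 CPM in control OS, dnFGFR SS and dnFGFR OS mice. The part of vascular cells in the values of the interferon genes was not tested.

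Among the other interferon regulatory factors, Irf8 had the smallest p between housings in control mice (-0.35, SE 0.114, edgeR adjusted p = 0.454), and none of 7 passed. None of 16 nucleic acid sensors and adaptors passed, and none of 15 genes of MHC class I presentation, where H2-T23 came closest between genotypes in SS-housed mice (0.46, SE 0.151, edgeR adjusted p = 0.361).

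No gene within 1 Mb of any member passed between genotypes in either housing. Oasl2 lies on chromosome 5, which held 9 of the genes that passed in SS-housed mice and 2 of those in OS-housed mice. All 50 tested genes within 1 Mb of Oasl2 were below the threshold in both.

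Whether the members vary together was asked after each group's mean was removed from log2 CPM, so that only differences between mice of the same group remained. The 36 pairs had a median Pearson's r of 0.33 (lowest -0.18, highest 0.67, n = 20 mice), and 34 of 36 were above 0. Over all pairs of tested genes the median was -0.002 and 49.9% were above 0. An r of 0.5 or more was reached by 7 of the 36 pairs and by 9.20% of all pairs. Members share libraries and their pairs share members, so these counts are descriptions.

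Bst2 and Usp18 had the highest correlation, with r = 0.67 (permutation of mice within groups, two-sided p = 0.00216, adjusted p = 0.0778 over 36 pairs) and Spearman's rho = 0.62 (permutation p = 0.00708, adjusted p = 0.0850). It was the 1 pair past 0.1 by r. Without the 2 mice farthest from the median of Bst2 it was 0.69. Within control mice r was 0.32 and within dnFGFR mice 0.82. The level of Bst2 was 1.13, 1.46, 3.23, 1.16 and 2.69 CPM in dnFGFR SS mice and 1.90, 1.80, 3.32, 0.980 and 1.68 CPM in dnFGFR OS mice. Usp18 measured 0.841, 0.813, 1.05, 0.655 and 1.48 CPM, and 1.46, 0.954, 1.93, 0.812 and 1.50 CPM, in the same mice. Replicate 4 was the lowest for Usp18 in both groups, and replicate 3 of the OS group was the highest of its group for both genes.

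By rank, 3 pairs passed 0.1 after adjustment: Bst2 with Usp18, Bst2 with Ifi27 (rho = 0.66, permutation p = 0.00519) and Ifit1 with Ifit3 (rho = 0.64, permutation p = 0.00700), all with an adjusted p of 0.0850. For Ifit1 and Ifit3, r was 0.52 over all mice (permutation p = 0.0191, adjusted p = 0.137), 0.56 without the 2 mice farthest from the median of Ifit1, 0.55 in control and 0.49 in dnFGFR mice. For Bst2 and Ifi27, r was 0.65 over all mice (permutation p = 0.00578, adjusted p = 0.104), 0.75 without the 2 farthest mice, 0.63 in control and 0.67 in dnFGFR mice. In all, 8 of 36 pairs had an unadjusted permutation p of r under 0.05. The 2 pairs below 0 were Ifit3 with Irf7 (r = -0.18) and Ifit3 with Oasl2 (r = -0.15).

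The median r was 0.29 within control mice, with 26 of 36 pairs above 0, and 0.38 within dnFGFR mice, with 34 of 36. The difference between genotypes was not tested. Sacrifice dates, 10 in all, held 1 to 4 mice each, too few for a correlation within dates. Without dnFGFR OS replicate 5, the mouse that stood apart, the median was 0.39. The count of pairs past the threshold by r depended on single mice and ran from 0 to 4 with each mouse left out in turn. It was 0 without any 1 of 7 mice: control OS replicates 1, 3 and 4, dnFGFR SS replicates 1, 2 and 5, and dnFGFR OS replicate 3.

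**Figure D3:**
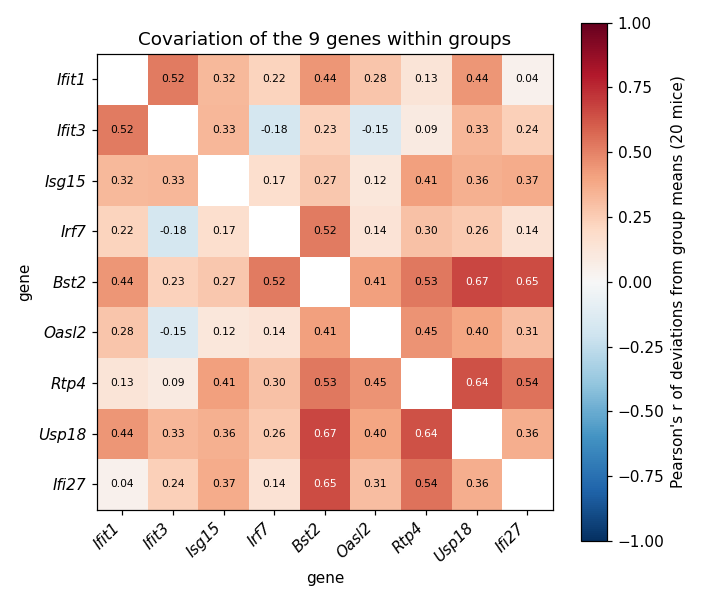
Pearson's r of the deviations from group means for each pair of the 9 genes (both axes; colour scale from -1 to 1; 20 mice). Bst2, Usp18, Rtp4 and Ifi27 hold the highest values, and the values of Ifit3 with Irf7 and with Oasl2 are the 2 below 0.

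By mouse, the mean log2 CPM of the members was highest above its group in dnFGFR OS replicate 3 (0.40, with 8 of 9 members above the group mean) and dnFGFR SS replicate 3 (0.37, 9 of 9). Control OS replicate 2 (0.26, 7 of 9) and control SS replicate 2 (0.25, 8 of 9) followed. The lowest were dnFGFR SS replicate 4 (-0.29, 1 of 9) and dnFGFR OS replicate 4 (-0.28, 1 of 9).

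Markers of the choroid plexus and ependyma (Ttr, Folr1, Kl, Foxj1 and Ccdc153) moved with the members. Their summed level ran from 24.4 to 1043 CPM in control SS mice, 37.6 to 1897 in control OS mice, 14.9 to 1547 in dnFGFR SS mice and 15.2 to 2101 in dnFGFR OS mice. All 5 had reads in every mouse except Folr1, which had reads in 19. Ttr carried most of the sum where the sum was high. It averaged 577 CPM over the 20 mice, and the other markers from 2.85 (Folr1) to 26.8 CPM (Kl). In dnFGFR OS replicate 3 it was 1992 of 2101 CPM, and in dnFGFR SS replicate 4 it was 0.208 of 14.9 CPM. 3 of the 4 mice in which the members were highest, dnFGFR OS replicate 3, dnFGFR SS replicate 3 and control OS replicate 2, also had the highest sum of their groups. In dnFGFR SS (replicate 4) and control SS mice (replicate 3), the mouse with the lowest sum also had the lowest mean of the members. In the OS-housed groups it did not. In dnFGFR OS mice, replicate 4 had the lowest mean with a sum of 40.1 CPM, against 15.2 CPM in replicate 2. In control OS mice, replicate 3 had the lowest mean with a sum of 681 CPM. Replicate 5, with the lowest sum of that group (37.6 CPM), lay 0.05 above its group mean.

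Bst2 followed these markers most closely, with r = 0.75 (permutation p = 0.00124, adjusted p = 0.123) and rho = 0.75 (permutation p = 0.000950, adjusted p = 0.0940) over 99 relations of 9 members with 11 marker lists, a comparison chosen after the data were seen. The relation was 0.75 without the 2 mice farthest from the median of the markers, 0.55 in control and 0.87 in dnFGFR mice. Irf7 had r = 0.69 (permutation p = 0.00397, adjusted p = 0.164) and rho = 0.63 (permutation p = 0.00761, adjusted p = 0.188), and r was 0.55 without the 2 farthest mice. In all, 8 of 9 members had an r above 0 with these markers, and Ifit3 had -0.03. Within control mice r was below 0 for Ifit1 (-0.07), Ifit3 (-0.42) and Usp18 (-0.19). Most members also had an r above 0 with markers of oligodendrocytes, microglia and astrocytes, so the sign was not particular to the choroid plexus. Of the 99 relations, 0 passed an adjusted p of 0.1 by r, 1 by rho, and 13 had an unadjusted permutation p of r under 0.05.

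With the level of these markers regressed out within groups, the median r over the 36 pairs was 0.22, 27 pairs were above 0, and none passed 0.1. Ifit1 with Ifit3 then had the highest r (0.59, permutation test, adjusted p = 0.186). With the same level as a covariate in the housing and genotype fits, again 0 of 9 members passed in each of the 5 comparisons, and the log2 fold change of Irf7 between housings in control mice was -0.76 (unadjusted p = 0.00589 in edgeR, adjusted p = 0.621). The median marker sum was 109 CPM in control SS and 1368 CPM in control OS mice, so that in these groups Irf7 was lower where the markers were higher, the reverse of their relation within groups. The part of choroid plexus tissue in these correlations was otherwise not tested.

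**Figure D4:**
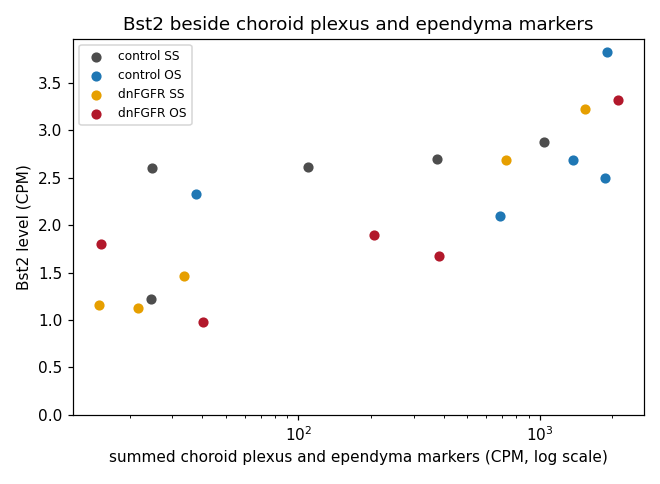
Level of Bst2 in CPM (vertical axis, from 0) against the summed level of 5 choroid plexus and ependyma markers in CPM (horizontal axis, log scale) in 20 mice coloured by group. The dnFGFR mice with sums of 1547 and 2101 CPM had 3.23 and 3.32 CPM of Bst2, and those with sums of 14.9 to 40.1 CPM had 0.980 to 1.80 CPM. The separation was less clear in control mice. Those with sums of 24.4, 24.7 and 37.6 CPM had 1.22, 2.60 and 2.33 CPM of Bst2. Those with sums of 1855 and 1897 CPM had 2.50 and 3.82 CPM.

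Markers of other cell types also moved with single members, and none of these relations passed after adjustment. Ifi27 had r = -0.63 with markers of border macrophages (permutation p = 0.00664, adjusted p = 0.164; rho = -0.68, permutation p = 0.00366, adjusted p = 0.181), which summed to 6.67 to 11.9 CPM. Isg15 had r = 0.62 with neutrophil markers (permutation p = 0.00632, adjusted p = 0.164; rho = 0.57, permutation p = 0.0177, adjusted p = 0.215), of which none exceeded 16 reads in any mouse. Lymphocyte markers Cd3e, Cd3d and Cd8a had at most 5 reads in any mouse, and the neutrophil marker S100a8 at most 9. Cd4 carried nearly all of the lymphocyte list (22.3 to 46.5 CPM).

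The genes most like the mean of the 9 members were ranked by Spearman's rho of deviations from group means over the 20 mice, among 17436 genes. The 10 highest were Dgka (0.80), C1s1 (0.80), Ss18 (0.78), Gm6548 (0.77), 1700094D03Rik (0.77), Them4 (0.76), 9330188P03Rik (0.75), Afap1l2 (0.75), BC049715 (0.75) and Man2b1 (0.75). C1s1 encodes a complement C1s protease, Dgka a diacylglycerol kinase and Man2b1 a lysosomal mannosidase. None of the 10 is on the interferon lists. A rho of 0.5 or more was reached by 4.34% of all genes, by 3 of 39 other antiviral effectors (Oas1a, Parp9 and Trim30a, median over the list 0.21), by 4 of 14 interferon gamma-responsive genes (Tgtp1, Tgtp2, Irgm2 and Iigp1, median 0.33) and by 0 of 15 genes of MHC class I presentation (median 0.29). Among cell type markers it was reached by 4 of 5 of the choroid plexus and ependyma (median 0.63) and by 1 of 5 of astrocytes (Gfap, at 0.71). The oligodendrocyte markers Mobp (0.68), Mog (0.61) and Mbp (0.56), genes of myelin, also reached it. The median over all genes was 0.0090.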

How the data were processed

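The authors received reads that had been aligned with HISAT2 to GRCm38, assigned them to RefSeq genes with Rsubread, and deposited unnormalized whole-number counts for 25239 genes in 20 mice, 5 per group. A further 20 columns belong to no described sample and were not used. The counter's settings for strand and for shared reads are not given in the sources used here.

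Groups were taken from the labels. The 9 members and the gene and marker lists were chosen with earlier results of these data known, and the text names the members, the gene with the smallest p of each list, the 10 genes most like the members' mean, called neighbours, and defining markers. Each comparison was fitted on all genes of its own mice with edgeR 4.0.16 in R 4.3.3 (quasi-likelihood test, TMM, filterByExpr), with Benjamini-Hochberg adjusted p under 0.1 over all genes tested. The interaction used all 20 mice. Standard errors are the fold change divided by the square root of F, and intervals use the fitted degrees of freedom. Correlations used log2 CPM with a prior count of 2, group means removed, and 100000 permutations of mice within groups. The relations with cell type markers and the fits with choroid plexus markers were added after the data were seen. Alternatives were DESeq2 1.42.0, RLE size factors, omission of the filter, a minimum of 10 counts per mouse, all 4 groups in 1 fit, a stricter threshold of 0.05, the replicate number as a block, date as a block among mice from dates shared by both housings, and each mouse left out in turn. The fits were tested on simulated data. Counted reads ran from 32353578 to 39871353 per mouse, so 1 CPM is 32.4 to 39.9 reads.

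Promoter sequences are from RefSeq (GRCm38.p6) and matched 6 of 9 members by symbol. The labels do not say whether mice with the same replicate number were paired, and the main fits did not pair them. The correlations of their deviations ran from -0.23 to 0.26, and not all were over 0.1. Such values cannot show whether the mice were paired. Some genes of the lists are not reported here.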

Additional observations from a re-analysis of the deposited data

Results flagged for a closer look

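In each of 36 sets of 5 mice (9 genes in 4 groups), the highest and the lowest level were compared with the nearest of the others by Dixon's test, and 5 stood apart, where chance gives about 1 in 20. Ifit1 in control SS replicate 2 was at 4.29 CPM, and the other 4 mice of its group lay between 2.14 and 2.75. Bst2 in control SS replicate 3 was at 1.22 CPM, below the others at 2.60 to 2.88, and the choroid plexus and ependyma markers summed to 24.4 CPM in this mouse, the lowest of its group. Oasl2 in dnFGFR OS replicate 3 was at 5.25 CPM (others 3.13 to 3.73), and Rtp4 in the same mouse at 2.46 CPM (others 1.34 to 1.57). Rtp4 in control OS replicate 2 was at 2.40 CPM (others 1.19 to 1.51). Both of these OS-housed mice had the highest choroid plexus and ependyma markers of their groups, at 2101 and 1897 CPM, and the part of this tissue in the values was not tested.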

How the results depend on the processing

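In each of the 5 comparisons, 0 of 9 members passed under every alternative that was run, DESeq2 included. The count over all genes moved by over 1.5 times for housing in control mice (21) with DESeq2 (157), at least 10 counts in every mouse (32), all groups in 1 fit (0), a threshold of 0.05 (6), the date block (1) and the choroid marker covariate (0). It did so for housing in dnFGFR mice with DESeq2 (5, against 0), for genotype in SS-housed mice (34) with DESeq2 (226) and the covariate (63), for genotype in OS-housed mice (9) with DESeq2 (78), 1 fit (45), a threshold of 0.05 (5) and the covariate (15), and for the interaction with DESeq2 (1, against 0). With each mouse left out in turn these counts ran from 0 to 32, 0 to 0, 21 to 70, 3 to 16 and 0 to 0. The replicate number as a block gave 3 genes for genotype in OS-housed mice, changed no member's call, and turned the sign of Usp18 between housings in control mice (-0.024), Bst2 between housings in dnFGFR mice (0.029), and Oasl2 (-0.0027) and Usp18 (-0.043) between genotypes in SS-housed mice.

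No member passed in the fits where signs turned, and the cause was not tested. With date as a block, Isg15 (-0.30) and Usp18 (-0.018) between housings in control mice and Bst2 in dnFGFR mice (0.30) changed sign. With the covariate, Bst2 (-0.050) and Ifi27 (-0.012) did so in control mice, Irf7 (-0.0086) and Oasl2 (-0.041) in dnFGFR mice, Usp18 (-0.012) between genotypes in SS-housed mice and Bst2 for the interaction (0.15). Bst2 between housings in dnFGFR mice was 0.0075 with DESeq2, 0.0063 with RLE size factors and 0.0030 without the filter, and Usp18 between genotypes in SS-housed mice was -0.00010 with RLE size factors.

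Leaving out each mouse in turn, log2 fold changes that changed sign at least once ran as follows. Between housings in control mice, Ifit1 ran from -0.21 to 0.077, Isg15 from -0.0050 to 0.28, Bst2 from -0.0068 to 0.24, Rtp4 from -0.29 to 0.0050, Usp18 from -0.11 to 0.15 and Ifi27 from -0.030 to 0.16. Between housings in dnFGFR mice, Irf7 ran from -0.18 to 0.21, Bst2 from -0.29 to 0.26, Oasl2 from -0.13 to 0.13 and Ifi27 from -0.12 to 0.11. Between genotypes in SS-housed mice, Ifit1 ran from -0.19 to 0.10, Oasl2 from -0.089 to 0.16, Usp18 from -0.20 to 0.11 and Ifi27 from -0.13 to 0.10. Between genotypes in OS-housed mice, Ifit3 ran from -0.034 to 0.20, Rtp4 from -0.087 to 0.31 and Ifi27 from -0.17 to 0.014. For the interaction, Ifit3 ran from -0.11 to 0.13, Bst2 from -0.44 to 0.11, Rtp4 from -0.35 to 0.047 and Ifi27 from -0.20 to 0.042. Irf7 between housings in control mice stayed between -0.65 and -0.39 and Isg15 between genotypes in SS-housed mice between -0.84 and -0.52.

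Of 36 pairs, 1 passed by r. The count was 0 within control mice, 2 within dnFGFR mice, 0 without removal of group means, 0 with choroid markers regressed out, and 0 to 4 with each mouse left out in turn, where the median r ran from 0.28 to 0.39. Of the 9 members, Usp18 had the fewest reads (21 to 65 per mouse) and the highest coefficient of variation from counting (16.3%).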
